A study of Mus musculus with 6 samples.

Results

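The 31 genes described here encode the B cell antigen receptor, the proteins that pass on or restrain its signal, other surface proteins of B cells, and transcription factors of the B lineage. They were picked by symbol from a table of 23207 genes, and each of the 31 had a row and passed the filter on low counts that left 19745 genes for testing. The libraries came from endothelial cells of the spleen. The mice were Apoe knockouts, a model in which loss of this lipoprotein component raises blood cholesterol, most of all on fatty food. Mice 1603, 1604 and 1607 received an antisense oligonucleotide (ASO) against Mlkl, which encodes the pseudokinase that carries out necroptosis, and mice 1601, 1602 and 1608 received a control ASO. All 6 mice were on a high cholesterol diet during the 8 weeks of treatment and are labelled as Apoe knockouts, and each gave 1 library. The sources used here do not say how the endothelial cells were isolated, nor the age and sex of the mice.

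B cells recognise antigen through membrane IgM and IgD, whose heavy chains signal through the paired chains CD79A and CD79B. Antigen binding leads Src-family kinases to phosphorylate these chains, and the adaptor BLNK and the kinase BTK then carry the signal to calcium release, while receptors such as CD22 damp it. The spleen is a major B cell organ, with recirculating follicular B cells in the white pulp and marginal zone B cells at its border, close to the sinusoidal vessels.

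Libraries held 59988846 to 85724084 estimated counts in MLKL ASO mice and 67699450 to 87776706 in control mice. Levels are given in CPM, the usual depth-scaled count unit, on TMM-scaled library totals, in the order of mice 1603, 1604 and 1607 for the MLKL ASO and 1601, 1602 and 1608 for the control ASO. Mlkl itself measured 7.53, 5.81 and 3.74 CPM in MLKL ASO mice, against 30.7, 31.2 and 38.0 CPM in control mice, so that each library matched its label (log2 fold change -2.55, standard error 0.27, edgeR adjusted p = 0.0655). Reads were assigned to Apoe in every library, at 32.3, 31.4 and 38.7 CPM in MLKL ASO mice and 53.9, 41.6 and 73.7 CPM in control mice (log2 fold change -0.72, standard error 0.22, edgeR adjusted p = 0.342). The sources used here do not say which part of Apoe the knockout removes, so these reads do not check the genotype. All 15 endothelial markers examined, among them Pecam1, Cdh5 and Stab2, were detected. Their summed level was 4630, 4124 and 4407 CPM in MLKL ASO mice and 3257, 4590 and 5992 CPM in control mice, so that control mouse 1601 had the lowest share of their RNA and control mouse 1608 the highest.

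RNA of B cells was present in every library, and its genes had a lower mean in MLKL ASO mice for 30 of the 31 members. The median log2 fold change (MLKL ASO over control ASO) of the members was -0.61, against -0.0092 over all genes tested, where 51.2% of genes lay below 0. A log2 fold change of -0.5 or below was seen in 22 members and in 14.6% of all genes. By edgeR's quasi-likelihood test 0 members passed the adjusted p threshold of 0.05, with 0.342 as the smallest adjusted p, while 10 members had an unadjusted p under 0.05 in the lower direction. Over all genes, 0.00506% passed as lower and 0.00506% as higher, and 6.96% were lower at an unadjusted p under 0.05. DESeq2 likewise called 0 members (1.48% of genes lower), and limma-voom with sample weights called 0, with 16 members lower at an unadjusted p under 0.05 (9.17% of genes). In bulk RNA, fewer B cells in the spleen, fewer carried into the endothelial preparation and less RNA per B cell cannot be told apart.

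The difference lay unevenly over the mice. Control mouse 1601 had the highest level of each of the 31 members, while it was the highest library for 21.3% of all genes. Relative to each gene's median library, the members' median log2 level was -0.15, -0.53 and 0.094 in MLKL ASO mice, and 1.04, 0.21 and -0.085 in control mice. MLKL ASO mouse 1604 was lowest for 25 members, MLKL ASO mouse 1603 for 3 and control mouse 1608 for 3. Control mouse 1608 lay within the range of the MLKL ASO mice for 23 members, above it for 5 and below it for 3. In 27 members the control mice ranked 1601, 1602, 1608 from high to low.

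**Figure D1:**
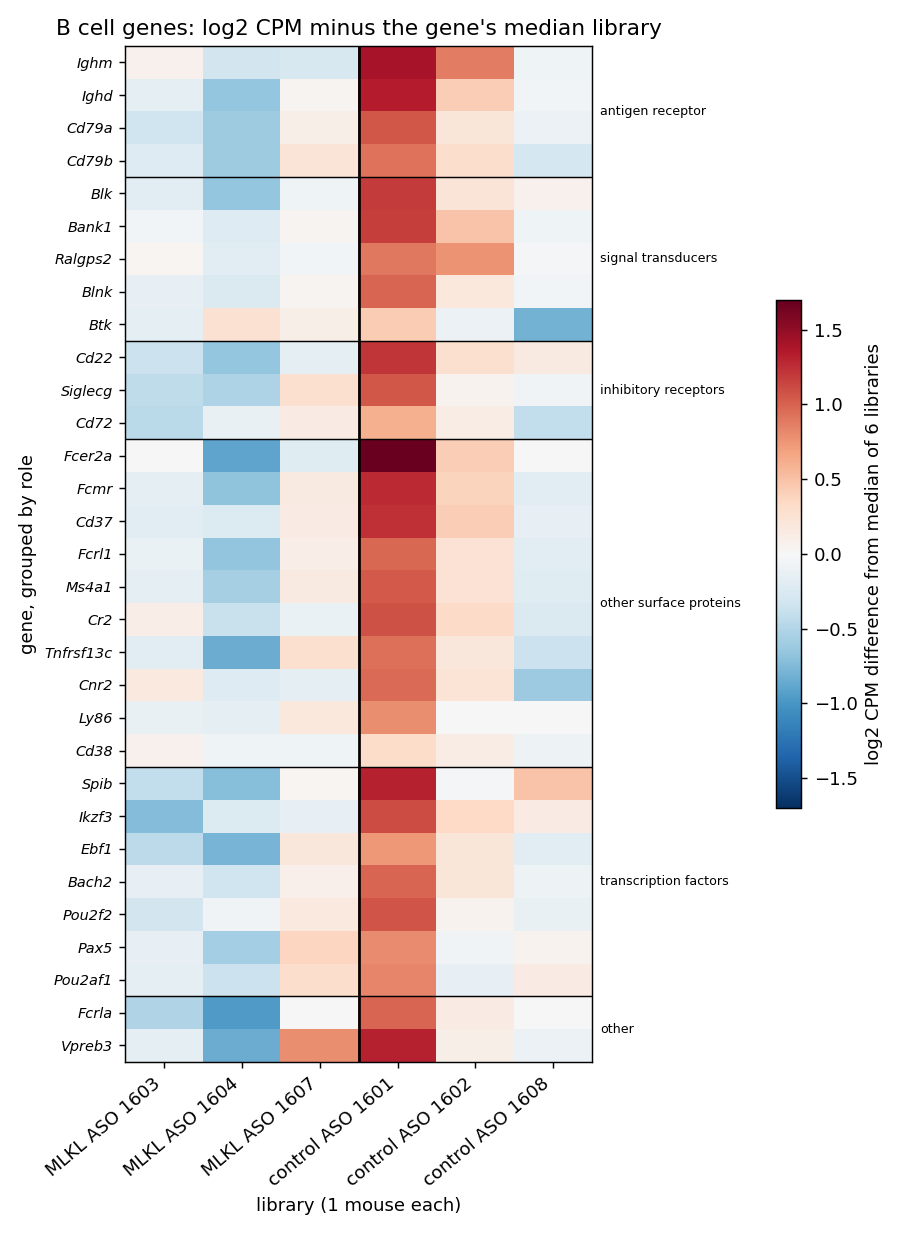
Colours show the log2 CPM of each of the 31 genes minus that gene's median over the 6 libraries, with MLKL ASO mice in the left columns, control mice in the right columns, and genes grouped by role. The column of control mouse 1601 is the highest in each row, whereas control mouse 1608 has colours like those of the MLKL ASO mice in most rows.

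The groups did not overlap, with all MLKL ASO mice below all control mice, in 4 members (Cd22, Ikzf3, Blk and Fcrla) and in 9.71% of all genes. Without control mouse 1608 this held for 21 members, beside 18.2% of all genes, and without control mouse 1601 for 4 members, beside 15.7%. Leaving out an MLKL ASO mouse gave 7 members without mouse 1603, beside 13.6% of all genes, and 16 without mouse 1607, beside 13.5%. Members lower at an unadjusted p under 0.05 numbered 23 without mouse 1608 (8.66% of genes) and 3 without mouse 1601 (6.95% of genes). The same count was 6 without mouse 1603 (4.47% of genes) and 2 without mouse 1604 (4.45% of genes). Without mouse 1601 the median log2 fold change of the members was -0.21, and 28 of the 31 stayed below 0, where 51.7% of all genes did. With mouse 1601 included, levels in control mice spread more widely than in MLKL ASO mice. The highest control library exceeded the lowest by a median factor of 2.24, against 1.52 among MLKL ASO mice. The factor was larger in control mice for 28 members. That highest control library was mouse 1601 for each of the 31 members, so the wider spread rested on this mouse. The factor was not computed over all genes.

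**Figure D2:**
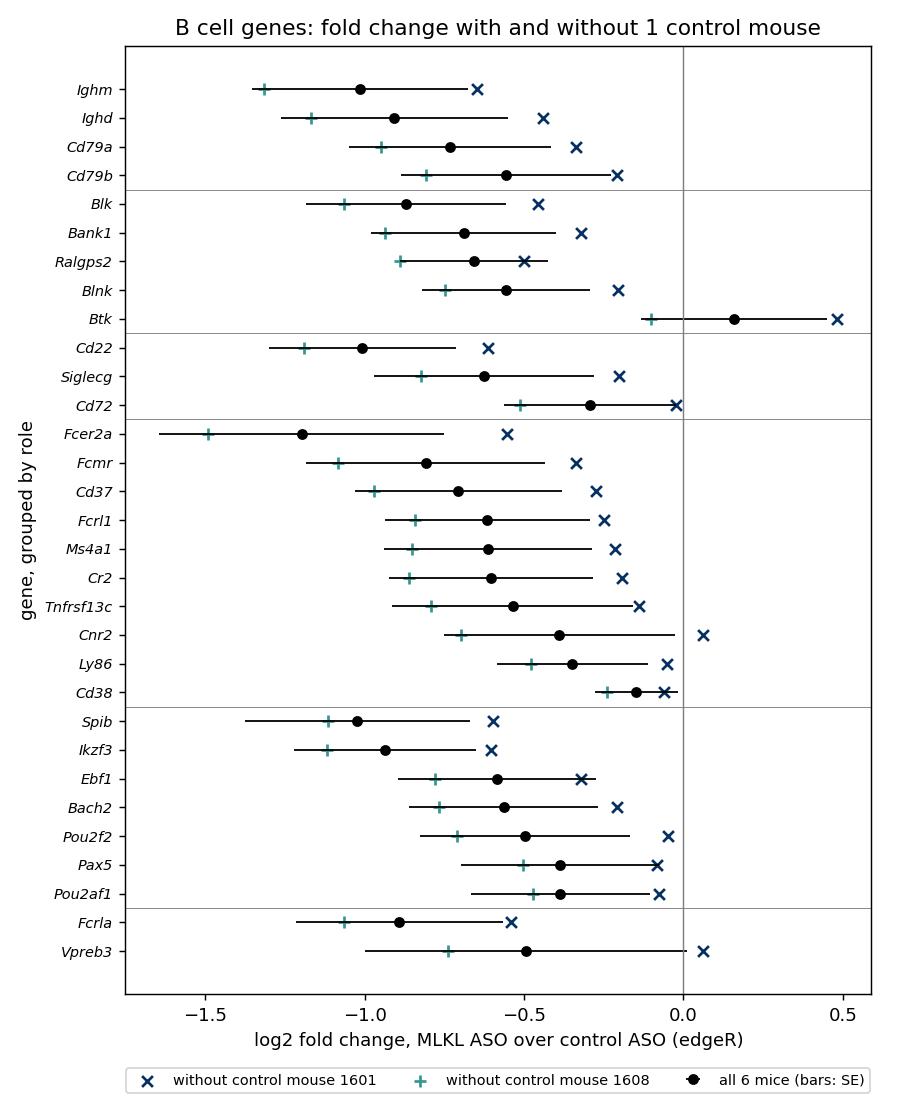
Points show the edgeR log2 fold change (MLKL ASO over control ASO) with its standard error for each of the 31 genes, and crosses show the same value without control mouse 1601 or without control mouse 1608. Btk is the only gene above 0 with all 6 mice, and values without mouse 1601 lie nearer to 0 than those of all mice for each of the other 30 genes.

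Markers of some other blood cells varied over the libraries in a like way. As the mean log2 CPM of a list, T and NK cell markers measured 3.41, 3.88 and 3.69 in MLKL ASO mice and 5.40, 4.52 and 4.11 in control mice, so that the groups did not overlap, and neither did they for dendritic cell markers. B cell genes on that scale measured 5.78, 5.52 and 6.06 in MLKL ASO mice and 6.995, 6.21 and 5.86 in control mice, and they overlapped at mouse 1608. All 15 T and NK cell markers had a log2 fold change below 0, with a median of -1.18 and 13 lower at an unadjusted p under 0.05, Cd4 and Trbc1 among them. Without mouse 1601 this median was -0.72, with all 15 below 0 and 12 at an unadjusted p under 0.05. Their summed level was 227 to 304 CPM in MLKL ASO mice and 330 to 844 CPM in control mice. The summed level of the 10 dendritic cell markers was 306 to 372 CPM and 422 to 669 CPM in the same order of groups. Ccr7 and Zbtb46 made up most of that dendritic cell sum. In that order Ccr7 measured 142 to 210 CPM and 211 to 481 CPM, and Zbtb46 107 to 109 CPM and 92.7 to 158 CPM. The median log2 fold change of the dendritic cell list was -0.51 with all mice and -0.28 without mouse 1601.

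**Figure D3:**
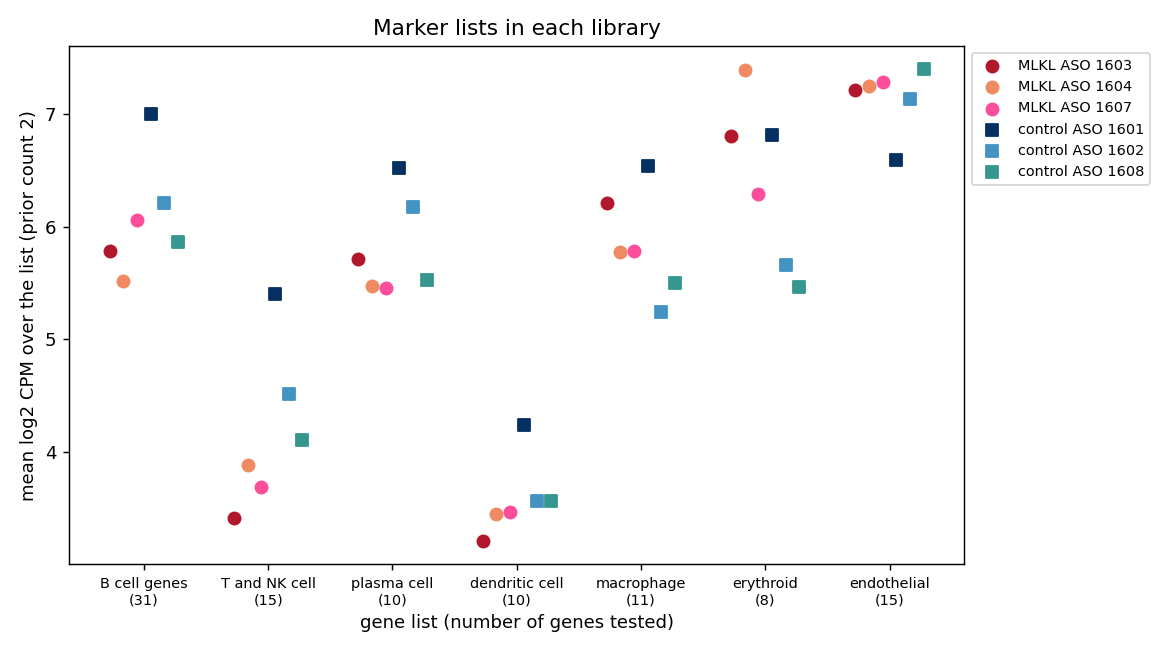
Points show the mean log2 CPM of each gene list in each library, MLKL ASO mice as circles and control mice as squares. Control mouse 1601 is highest in the lists of B cells, T and NK cells, plasma cells, dendritic cells and macrophages and lowest in the endothelial list.

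Macrophage markers summed to 902 to 1219 CPM in MLKL ASO mice and 738 to 1534 CPM in control mice, with 6 of 11 genes below 0. Without mouse 1601, 1 of the 11 lay below 0. The median log2 fold change of the macrophage list was -0.025 with all mice and, with 1 mouse left out, ranged from -0.27 (without mouse 1608) to 0.53 (without mouse 1601). Neutrophil markers had 1 of 10 genes below 0 and a median of 0.39, with sums of 740 to 2047 CPM in MLKL ASO mice and 252 to 1917 CPM in control mice. With 1 mouse left out, that median ranged from -0.037 (without mouse 1608) to 1.77 (without mouse 1601). The 8 erythroid markers tested were all above 0, with a median log2 fold change of 0.84 and sums of 916 to 2118 CPM in MLKL ASO mice and 595 to 1479 CPM in control mice. Their median was 1.33 without mouse 1601 and 0.55 without mouse 1604. The endothelial list had 8 of 15 genes below 0 and a median of -0.041, but its median was -0.30 without mouse 1601, with 10 below 0, and 0.24 without mouse 1608, with 3 below 0. The 4 genes of follicular dendritic cells had 1 below 0 and a median of 0.025, which was 0.26 without mouse 1601 and -0.20 without mouse 1608. Every listed gene with a row had counts in at least 1 library. The part that the share of each cell type had in the values of the B cell genes was not tested.

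The sequences before the start sites of the members were examined for motifs of B lineage factors. The members were picked as B cell genes, and whether these motifs had a part in their levels was not tested. RefSeq (GRCm38.p6) gave windows of 250 bases before the start for 25 of the 31 genes, 31 windows in all, and both strands were searched. Some genes gave several windows, and those of Siglecg and of Ralgps2 overlap. The octamer ATGCAAAT, the site of OCT2, stood in 3 of 31 member windows (9.68%, against 1.6% of 32851 windows of all genes). The EBF1 inverted repeat TCCCNNGGGA stood in 1 (3.23%, against 0.779%), the Ets motif GAGGAAGT in 3 (9.68%, against 2.44%) and the E-box CAGGTG, bound by E2A, in 11 (35.5%, against 17.2%). No motif overlapped another in the member windows, and a match is a string of letters, not a measured binding site. Windows of 4 genes are shown 5′ to 3′ on the gene's strand, with motif matches in capitals (a match on the opposite strand reads as the reverse complement): Cd79a for the receptor, Cd22 for the member with the smallest p, Blnk for a member with the octamer, and Btk for the member whose fold change went the other way, which held none of the 4 motifs.
Cd79a, chr7:24897247-24897496, plus strand: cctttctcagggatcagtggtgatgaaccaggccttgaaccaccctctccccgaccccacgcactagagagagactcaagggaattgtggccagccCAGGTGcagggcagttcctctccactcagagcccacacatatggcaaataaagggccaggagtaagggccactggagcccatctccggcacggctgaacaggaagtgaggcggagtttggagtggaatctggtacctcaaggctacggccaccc
Cd22, chr7:30879029-30879278, minus strand: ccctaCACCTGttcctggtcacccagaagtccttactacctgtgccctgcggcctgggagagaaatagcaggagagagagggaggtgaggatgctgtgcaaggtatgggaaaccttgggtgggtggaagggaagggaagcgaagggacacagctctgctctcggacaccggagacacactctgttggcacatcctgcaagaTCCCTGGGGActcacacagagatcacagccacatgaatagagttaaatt
Blnk, chr19:40994222-40994471, minus strand: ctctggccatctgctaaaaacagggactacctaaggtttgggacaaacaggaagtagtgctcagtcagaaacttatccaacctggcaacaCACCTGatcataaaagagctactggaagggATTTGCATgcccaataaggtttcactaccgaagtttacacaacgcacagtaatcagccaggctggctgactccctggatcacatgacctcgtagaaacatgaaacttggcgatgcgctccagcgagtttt
Btk, chrX:134583141-134583390, minus strand: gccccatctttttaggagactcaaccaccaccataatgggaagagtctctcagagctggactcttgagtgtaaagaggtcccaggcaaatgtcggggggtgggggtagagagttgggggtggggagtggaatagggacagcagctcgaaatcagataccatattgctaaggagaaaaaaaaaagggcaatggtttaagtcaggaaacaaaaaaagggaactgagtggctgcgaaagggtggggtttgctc
By exact match to the 4 motifs as spelled, Cd79a carried 1 E-box, and Blnk an octamer and an E-box. Cd22 carried an EBF1 repeat near the start and an E-box at the far end. Btk was not alone in holding none: windows of Spib and Fcmr, with log2 fold changes of -1.02 and -0.81, held none either. Other spellings of these sites, and motifs of other factors such as Pax5, were not searched.

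The antigen receptor genes were all lower on average in MLKL ASO mice, with a median log2 fold change of -0.82 over the 4. Cd79a, the CD79A signalling chain whose E-box is shown above, measured 271, 225 and 366 CPM in MLKL ASO mice, against 714, 395 and 321 CPM in control mice. Cd79b, its partner chain, measured 215, 164 and 291 CPM in MLKL ASO mice and 475, 307 and 202 CPM in control mice. For both chains the groups overlapped, with control mouse 1608 inside the MLKL ASO range for Cd79a as for Cd79b. The log2 fold changes were -0.73 ± 0.32 (SE) for Cd79a (edgeR adjusted p = 0.430) and -0.56 ± 0.33 (SE) for Cd79b (edgeR adjusted p = 0.546). Ighm, the IgM heavy chain, which plasma cells also make in its secreted form, measured 3427, 2631 and 2703 CPM in MLKL ASO mice and 8619, 5972 and 3096 CPM in control mice. Ighd, the IgD heavy chain of mature B cells, measured 111, 78.3 and 128 CPM in MLKL ASO mice and 310.5, 164.5 and 119 CPM in control mice. Mouse 1608 again lay among the MLKL ASO mice for both heavy chains, and mouse 1601 was far above the rest. Their log2 fold changes were -1.01 ± 0.34 (SE) for Ighm (edgeR adjusted p = 0.365) and -0.91 ± 0.36 (SE) for Ighd (edgeR adjusted p = 0.397). The heavy chains are spliced from the same primary transcripts and share their variable region, so how the authors' counting divided reads between them is uncertain.

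Of the 5 genes that pass on the receptor signal, 4 were lower on average and Btk was not. Blk, a Src-family kinase of B cells, was chosen for its separate groups after its values were seen, with 27.5, 19.9 and 29.8 CPM in MLKL ASO mice and 71.4, 36.6 and 33.1 CPM in control mice (log2 fold change -0.87, standard error 0.31, edgeR adjusted p = 0.380). Ralgps2, an exchange factor for Ral GTPases, measured 52.7, 45.7 and 50.1 CPM in MLKL ASO mice and 95.7, 87.9 and 50.6 CPM in control mice. Mice 1601 and 1602 thus lay well above the others in Ralgps2, while mouse 1608 lay among the MLKL ASO mice (log2 fold change -0.66, standard error 0.23, edgeR adjusted p = 0.376). The scaffold Bank1 averaged 91.1 ± 8.42 CPM in MLKL ASO mice and 147 ± 63.3 CPM in control mice (SD, n = 3 each), and the adaptor Blnk 55.5 ± 5.85 and 81.7 ± 32.4 CPM in the same order of groups.

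Btk, Bruton's tyrosine kinase, which myeloid cells and platelets also use, measured 39.8, 53.0 and 47.5 CPM in MLKL ASO mice and 59.4, 41.0 and 25.2 CPM in control mice. The control mice lay on both sides of the MLKL ASO mice, with a log2 fold change of 0.16 ± 0.29 (SE; edgeR adjusted p = 0.870). Its sign rested on mouse 1608, without which the log2 fold change was -0.10.

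Inhibitory receptors of the B cell surface had log2 fold changes of -0.29 to -1.01. Cd22, a sialic acid-binding receptor that recruits phosphatases to dampen the receptor signal, had the smallest p of all members. It measured 46.0, 37.6 and 53.0 CPM in MLKL ASO mice, against 137, 71.6 and 66.1 CPM in control mice. All MLKL ASO mice were below all control mice, mouse 1608 included (log2 fold change -1.01, standard error 0.29, edgeR adjusted p = 0.342). Without mouse 1601 the log2 fold change of Cd22 was -0.61. Siglecg, a related sialic acid-binding inhibitor, averaged 39.5 ± 12.7 CPM in MLKL ASO mice and 61.0 ± 27.9 CPM in control mice, and the inhibitory coreceptor Cd72 169 ± 34.7 CPM and 207 ± 71.9 CPM (SD, n = 3 each), with overlap in both genes.

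Other surface proteins numbered 10, all with a log2 fold change below 0 and a median of -0.61, and their groups overlapped in each. Ms4a1, which encodes the B cell marker CD20, measured 167, 125 and 206.5 CPM in MLKL ASO mice and 382, 219 and 161.5 CPM in control mice (log2 fold change -0.61, standard error 0.33, edgeR adjusted p = 0.508). Fcer2a, the low-affinity IgE receptor CD23 of follicular B cells, had the lowest fold change of all members. It measured 43.0, 22.9 and 37.2 CPM in MLKL ASO mice, against 136.5, 57.3 and 42.5 CPM in control mice. Mouse 1608 lay just under MLKL ASO mouse 1603 (log2 fold change -1.20, standard error 0.45, edgeR adjusted p = 0.383), and without mouse 1601 the log2 fold change was -0.55.

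Cr2, the complement receptor CD21, part of the B cell coreceptor and most abundant on marginal zone B cells, measured 57.9, 41.3 and 49.5 CPM in MLKL ASO mice and 114, 66.8 and 45.2 CPM in control mice (log2 fold change -0.60, standard error 0.32, edgeR adjusted p = 0.508). Follicular dendritic cells also make Cr2 and Fcer2a. Their chemokine gene Cxcl13 measured 125, 37.8 and 77.8 CPM in MLKL ASO mice and 154, 101 and 7.26 CPM in control mice, lowest in mouse 1608. Clu, another of the 4 genes listed for these cells, ran the other way, with 2137, 2213 and 2170 CPM in MLKL ASO mice and 1530, 2038 and 2863 CPM in control mice. The list summed to 2812, 2717 and 2660 CPM in MLKL ASO mice and 2219, 2696 and 3117 CPM in control mice, and Clu made up most of each sum. The other listed genes, Coch and Mfge8, were like Cxcl13 lowest in mouse 1608, at 29.35 and 217 CPM. As mean log2 CPM the list measured 8.55, 8.02 and 8.18 in MLKL ASO mice and 8.49, 8.47 and 6.75 in control mice. The part of these cells in the values of Cr2 and Fcer2a was not tested. Ly86, which encodes MD-1, the partner of the receptor CD180, measured 47.6, 46.5 and 58.8 CPM in MLKL ASO mice and 90.4, 51.8 and 52.4 CPM in control mice (log2 fold change -0.35, standard error 0.24, edgeR adjusted p = 0.603). Cd38, an ectoenzyme of B cells that many other blood cells carry, measured 207, 188 and 187 CPM in MLKL ASO mice and 244, 214 and 186 CPM in control mice. It differed least among the members below 0, with a log2 fold change of -0.15 ± 0.13 (SE; edgeR adjusted p = 0.692).

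The remaining surface genes were the IgM Fc receptor Fcmr, the tetraspanin Cd37, the Fc receptor-like Fcrl1, the BAFF receptor Tnfrsf13c and the cannabinoid receptor Cnr2. Their log2 fold changes were -0.81, -0.71, -0.62, -0.54 and -0.39 in that order. BAFF is a survival factor of mature B cells, and Tnfrsf13c averaged 40.3 ± 14.8 CPM in MLKL ASO mice and 58.5 ± 26.6 CPM in control mice (SD, n = 3 each). Cnr2 had its lowest level, 14.9 CPM, in control mouse 1608, and without mouse 1601 its log2 fold change was 0.060.

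Transcription factors of the B lineage had log2 fold changes of -0.39 to -1.02, with a median of -0.56 over 7 genes. Pax5, which commits cells to the B lineage and activates Cd79a among other genes, measured 18.9, 14.0 and 26.8 CPM in MLKL ASO mice and 36.5, 20.02 and 21.6 CPM in control mice (log2 fold change -0.39, standard error 0.31, edgeR adjusted p = 0.657). Ebf1, which acts with Pax5, measured 62.4, 49.0 and 97.3 CPM in MLKL ASO mice and 141, 97.6 and 74.0 CPM in control mice (log2 fold change -0.58, standard error 0.31, edgeR adjusted p = 0.508). MLKL ASO mouse 1607 was above control mice 1602 and 1608 in Pax5, and level with mouse 1602 in Ebf1.

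Ikzf3, the zinc finger factor Aiolos of mature lymphocytes, measured 14.9, 21.1 and 22.5 CPM in MLKL ASO mice, against 53.4, 31.3 and 27.3 CPM in control mice. The groups of Ikzf3 did not overlap (log2 fold change -0.94, standard error 0.28, edgeR adjusted p = 0.344). In the authors' deposited table Ikzf3 was the 1 member past the threshold (log2 fold change -0.99, adjusted p = 0.0444), where 0.941% of genes were lower. Spib, an Ets factor of B cells and plasmacytoid dendritic cells, measured 20.9, 16.9 and 28.7 CPM in MLKL ASO mice and 69.1, 27.3 and 39.0 CPM in control mice, and control mouse 1602 lay just under MLKL ASO mouse 1607 (log2 fold change -1.02, standard error 0.35, edgeR adjusted p = 0.372). Bach2, a repressor of the plasma cell programme, had a log2 fold change of -0.56, the octamer factor Pou2f2 (OCT2) of -0.50 and its coactivator Pou2af1 of -0.39, all with overlapping groups.

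Of the remaining genes, Fcrla, an intracellular Fc receptor-like protein of B cells, was chosen for its separate groups after its values were seen. It measured 43.6, 31.8 and 61.7 CPM in MLKL ASO mice and 123, 68.7 and 62.5 CPM in control mice (log2 fold change -0.89, standard error 0.33, edgeR adjusted p = 0.380). Vpreb3, which takes part in assembling immunoglobulin chains in B lineage cells, averaged 11.5 ± 6.55 CPM in MLKL ASO mice and 16.1 ± 9.24 CPM in control mice (SD, n = 3 each), and its log2 fold change was -0.49 with all mice and 0.063 without mouse 1601.

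Within a library, a ratio between members does not move with the total amount of B cell RNA, as far as both genes come from B cells. Relative to the mean log2 level of Cd79a and Cd79b, 3 of the other 29 members (Cd22, Fcrla and Ighd) were lower in all MLKL ASO mice than in all control mice, as were 0.593% of all genes, and 1 (Btk) was higher, as were 15.8% of all genes. All genes share this denominator, which was itself lower on average in MLKL ASO mice. The log2 ratio of Btk to the Cd79 mean was -2.60, -1.85 and -2.78 in MLKL ASO mice and -3.29, -3.09 and -3.34 in control mice. Btk thus varied apart from the receptor chains, as did the 15.8% of all genes that separated in the same direction. By contrast the ratio of Ms4a1 stayed between -0.53 and -0.66 in MLKL ASO mice and between -0.61 and -0.67 in control mice.

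**Figure D4:**
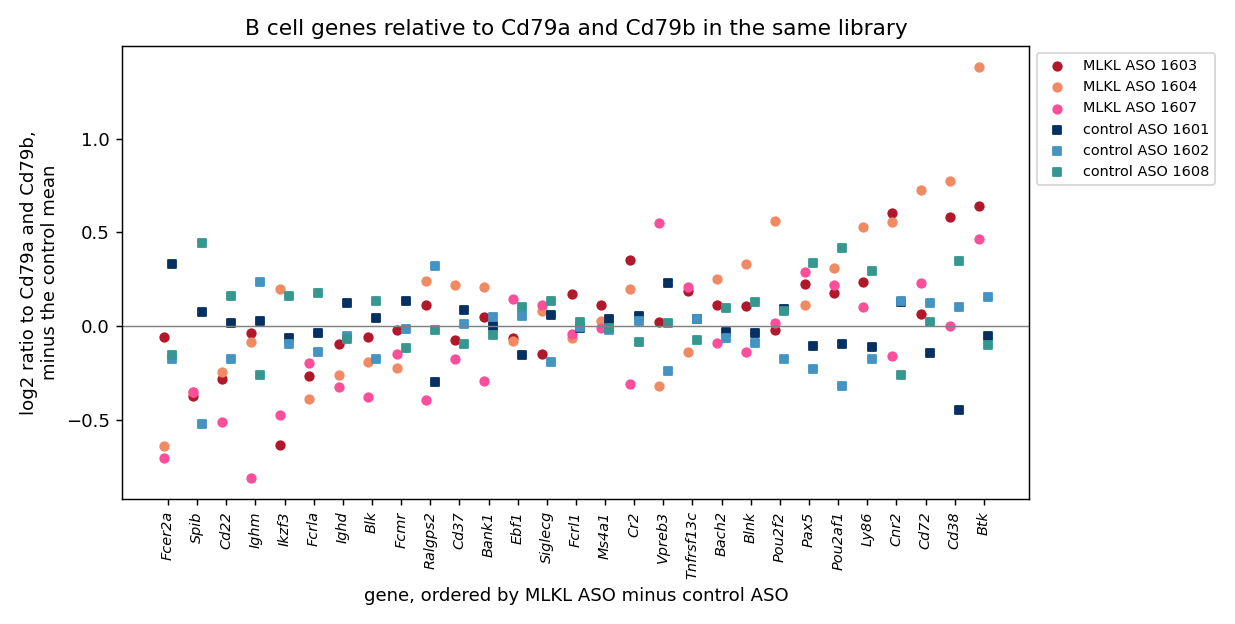
Points show, for 29 genes in each library, the log2 ratio of the gene's CPM to the mean of Cd79a and Cd79b, minus the control mean of that ratio, with genes ordered by the difference between the groups. Btk stands highest with its MLKL ASO mice all above the control mice, while Ms4a1 and Fcrl1 scatter closely around 0.

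Of 5 ratios between pairs of members, the ratio of Cr2 to Fcer2a separated the groups. It was 1.35, 1.80 and 1.33 in MLKL ASO mice and 0.833, 1.165 and 1.06 in control mice, a difference of 0.55 in mean log2 ratio. The exact two-sided permutation test gave p = 0.1, which no split of 3 and 3 mice can go below, and 0.333 after adjustment over the 5 ratios. The difference was 0.41 to 0.65 when any 1 mouse was left out. Ighd to Ighm, the balance of IgD to IgM, differed by 0.084 (exact permutation p = 0.8), Cd79a to Cd79b by -0.16 (exact permutation p = 0.2), Cd38 to Cd79a by 0.53 (exact permutation p = 0.3) and Pax5 to Cd79a by 0.29 (exact permutation p = 0.2). The Cd38 to Cd79a difference was 0.30 without mouse 1601 and ranged up to 0.75, without mouse 1607. For Pax5 to Cd79a the range over mice left out was 0.22 to 0.43, and for Cd79a to Cd79b -0.25 to -0.10. Adjusted over the 5 ratios, the exact permutation p of these was 0.333 to 0.8. Such ratios compare libraries and do not give relative transcript numbers, since CPM does not account for gene length.

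Beyond the members, other genes of the receptor pathway gave a smaller average difference, and by edgeR 0 genes of any of the lists examined passed the adjusted threshold. Of 20 signal transducers 15 lay below 0 and their median was -0.24 on the log2 scale, with 5 lower at an unadjusted p under 0.05. Without mouse 1601 the median was -0.048 and 12 lay below 0, and without mouse 1608 the median was -0.41. Malt1, the protease that links the receptor to NF-κB, and the calcium-regulated factor Nfatc1 had log2 fold changes of -0.67 and -0.64. Malt1 measured 30.6, 34.4 and 30.5 CPM in MLKL ASO mice and 61.8, 43.7 and 46.0 CPM in control mice, and in both genes all MLKL ASO mice lay below all control mice. Among the transducers above 0, chosen after their values were seen, were Lyn, Fyn, Vav3 and Dapp1, with log2 fold changes from 0.13 for Lyn to 0.48 for Dapp1 and overlapping groups. Many of these transducers are also made by T cells, myeloid cells or platelets.

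Of 10 inhibitors of the pathway 9 were below 0 (median -0.35 on the log2 scale) and 2 were lower at an unadjusted p under 0.05. These values were -0.10 for the median and 6 below 0 without mouse 1601. Cd5, which restrains antigen receptor signals in T cells and B-1 cells, measured 18.5, 17.6 and 20.5 CPM in MLKL ASO mice and 28.5, 27.5 and 27.7 CPM in control mice. In Cd5 the control mice agreed closely with each other and lay above all MLKL ASO mice (log2 fold change -0.57, standard error 0.13, edgeR adjusted p = 0.269). The adaptor Dok3 and the Fc receptor Fcgr2b had log2 fold changes of -0.62 and -0.36, with separate groups in both. Unlike the members, Fcgr2b was highest in control mouse 1602, at 160 CPM, and not in mouse 1601.

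Among 11 further surface genes 9 were below 0, with a median of -0.64 and 4 lower at an unadjusted p under 0.05. Their median was -0.30, with 8 below 0, when mouse 1601 was left out. The chemokine receptor Ccr6 averaged 11.8 ± 1.63 CPM in MLKL ASO mice and 24.5 ± 10.4 CPM in control mice, and Cxcr5, which guides B cells into follicles, 47.4 ± 9.39 CPM and 80.8 ± 34.2 CPM (SD, n = 3 each). The 2 surface genes above 0 were Cd24a and Fcrl5, with log2 fold changes of 0.76 and 0.36 and overlapping groups. All 12 further transcription factors lay below 0, with a median of -0.27 and 1 lower at an unadjusted p under 0.05, where 6.96% of all genes were. Without mouse 1601 the median was -0.14 and 8 of the 12 lay below 0, and without mouse 1608 5 were lower at an unadjusted p under 0.05. The 1 with all mice was Irf8, which dendritic cells and macrophages share, at 265 ± 3.68 CPM in MLKL ASO mice and 358 ± 42.0 CPM in control mice (SD, n = 3 each). Its highest level, 406 CPM, was in control mouse 1608 and not in mouse 1601. Irf4 and Spi1, the next in that list, had log2 fold changes of -0.66 and -0.71.

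Stages of B cell life were examined with small lists. Of 6 germinal centre genes 5 were below 0, and the median of the 6 was -0.15, from -0.40 without mouse 1607 to 0.040 without mouse 1608, with Mef2b at -0.63 and S1pr2 at -0.17. Gcsam, a signalling adaptor of germinal centre B cells, stood at 25.1, 56.5 and 37.6 CPM in MLKL ASO mice and 19.8, 26.3 and 9.55 CPM in control mice (log2 fold change 1.10, standard error 0.41, edgeR adjusted p = 0.386), with overlap. Of 6 early B cell genes 4 had a row and 2 were measured well enough to test, Dntt and Vpreb1, and the summed level of that list was 0.585 to 1.69 CPM in MLKL ASO mice and 0.845 to 1.92 CPM in control mice. All 10 plasma cell genes lay below 0 (median -0.72 on the log2 scale), 4 of them lower at an unadjusted p under 0.05. Without mouse 1601 the median was -0.29, with all 10 below 0 and 1 at an unadjusted p under 0.05. Mzb1, a chaperone of antibody assembly, averaged 92.6 ± 8.05 CPM in MLKL ASO mice and 166 ± 65.5 CPM in control mice, and the joining chain Jchain 924 ± 148 CPM and 1731 ± 760.1 CPM (SD, n = 3 each). The light chain gene Igkc had a log2 fold change of -0.86. Not all genes of that list differed alike: Prdm1, Sdc1 and Xbp1 lay near 0, with log2 fold changes of -0.0087, -0.16 and -0.17. The other listed plasma cell genes ranged from -0.64 (Slamf7) to -0.99 (Derl3).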

How the data were processed

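Per the submitters' processing notes, reads were processed with fastp 0.20.1, Salmon 1.3.0 and DESeq2. The genome build and annotation were not given in the sources used here. The deposited estimated counts (69.3% of values not whole) were rounded and tested in R 4.3.3 with edgeR 4.0.16: default expression filter, TMM scaling, quasi-likelihood test, two-sided, with Benjamini-Hochberg adjustment over all 19745 genes and a threshold of 0.05. CPM used TMM-scaled totals, and log2 CPM a prior count of 2. The authors' deposited DESeq2 table gives, per the file headers, a mean normalised count (a signal over all libraries), a log2 fold change and its error, the score of the Wald test, and raw and adjusted p-values. Its direction is not named. Its log2 fold changes correlated with those computed here at Pearson r = 0.977 across 19728 genes, which are not independent replicates, so positive means higher in MLKL ASO.

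Alternatives were other scalings and count filters, DESeq2 1.42.0, limma-voom (limma 3.58.1) and leaving out each mouse (for the gene lists, chosen after seeing the data). Tools were tested on simulated data. The members and gene lists were chosen with earlier results of these data known. Values in each library are given for a fixed set of 13 members, the 5 with the smallest p and the 2 highest and 2 lowest fold changes. They are also given for Blk and Fcrla, added after their values were seen. Outside the members they are given for Mlkl, for Apoe and for up to 3 genes with the smallest p per list. Cxcl13 and Clu, also given in each library, were not chosen by p. Some listed genes are counted but not reported here by name. Most precision is set by 3 mice per group, not by depth.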

Additional observations from a re-analysis of the deposited data

How the results depend on the processing

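The median log2 fold change of the members stayed below 0 under each alternative run, from -0.59 to -0.62 over the other scalings, filters and tools, and from -0.84 (without control mouse 1608) to -0.21 (without control mouse 1601) when 1 mouse was left out. The number of members past the adjusted threshold was 0 under each of these alternatives. Over all genes, 2 passed in edgeR, 4 with upper quartile scaling, 515 in DESeq2, 22 in limma-voom and 0 to 19 without 1 mouse. Counts added after seeing the data moved more: members lower at an unadjusted p under 0.05 numbered 16 in limma-voom and 2 to 23 without 1 mouse (2 without mouse 1604, 3 without 1601, 6 without 1603, 23 without 1608), and members whose groups did not overlap 4 to 21 (7 without mouse 1603, 16 without 1607, 21 without 1608). Of 372 single-member values under alternatives, 3 changed sign, all of them when 1 mouse was left out: the ranges were -0.10 to 0.48 for Btk, -1.04 to 0.063 for Vpreb3 and -0.70 to 0.060 for Cnr2. The difference in the Ighd to Ighm log2 ratio ranged from -0.12 to 0.21 when 1 mouse was left out. The causes were not tested. No paired analysis was possible because mouse numbers do not recur between the groups.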
